A study of Mus musculus with 2 samples.

Results

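The SoxD and SoxE factors are 2 groups of related transcription factors, and their 6 genes were chosen by name: Sox5, Sox6 and Sox13 for SoxD, and Sox8, Sox9 and Sox10 for SoxE. Each gene was found by its identifier in the gene tables, where the 6 genes stand among 43346 annotated genes, and by its transcripts, 29 in all, in the transcript tables. The data are total RNA sequencing of hindbrain from healthy mouse embryos of strain B6NCrl, collected at 10.5 days, with no treatment and no genetic change given in the labels. There was 1 group with 2 biological replicates, a pool of 69 embryos of both sexes (replicate 1) and a pool of 51 (replicate 2). Each library took 10 ng of RNA with spike-ins added, and since 1 donor ID stands in the labels for both pools, the spread described here is that between these 2 pools.

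Sox proteins bind DNA through the HMG box, a domain that fits into the minor groove and bends the helix. The SoxE proteins also carry a transactivation domain. Sox9 is best known for the cartilage lineage, for the specification of the neural crest and for neural progenitors that later turn to glia, Sox10 for neural crest cells and for the glia that come from them and for the otic vesicle, and Sox8 for roles that overlap with those of the other SoxE genes. The SoxD proteins have a coiled coil through which they pair, and no transactivation or repression domain of their own, and Sox5 and Sox6 act beside Sox9 in cartilage and modulate SoxE factors in the oligodendrocyte lineage of the mouse spinal cord.

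The HMG box is what the 6 genes share. The conserved amino acids at its start served to tell transcripts whose coding sequence contains the start of the box from those without it. A transcript counted as holding the box need not encode the whole protein. Each line gives 120 bases of coding sequence of a GENCODE M21 transcript, 5′ to 3′ on the gene's strand. Capitals mark the opening 27 bases, which encode these conserved amino acids of the box.
Sox8: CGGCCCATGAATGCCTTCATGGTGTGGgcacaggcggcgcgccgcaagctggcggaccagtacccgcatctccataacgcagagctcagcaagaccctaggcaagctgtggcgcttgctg
Sox9: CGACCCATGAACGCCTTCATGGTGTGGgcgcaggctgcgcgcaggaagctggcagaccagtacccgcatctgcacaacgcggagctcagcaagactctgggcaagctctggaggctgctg
Sox10: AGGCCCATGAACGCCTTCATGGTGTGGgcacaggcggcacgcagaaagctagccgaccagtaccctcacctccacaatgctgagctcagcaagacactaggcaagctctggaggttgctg
Sox5: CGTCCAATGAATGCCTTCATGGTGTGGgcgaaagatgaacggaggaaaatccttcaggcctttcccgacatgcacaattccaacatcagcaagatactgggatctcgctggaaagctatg
Sox6: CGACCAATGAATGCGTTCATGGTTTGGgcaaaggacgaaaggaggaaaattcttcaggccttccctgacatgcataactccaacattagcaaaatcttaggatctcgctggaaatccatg
Sox13: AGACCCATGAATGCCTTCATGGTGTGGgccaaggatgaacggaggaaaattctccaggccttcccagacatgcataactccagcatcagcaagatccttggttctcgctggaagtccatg
On mm10, and with an intron inside each span, these stretches lie at chr17:25569054-25570222 (Sox8, minus strand), chr11:112782903-112783815 (Sox9, plus strand), chr15:79159397-79163401 (Sox10, minus strand), chr6:143835393-143841273 (Sox5, minus strand), chr7:115486745-115489762 (Sox6, minus strand) and chr1:133384654-133385565 (Sox13, minus strand). Position by position, the 3 SoxE stretches were 86.7% identical to each other, the 3 SoxD stretches 84.2% to 86.7%, and a SoxE and a SoxD stretch 55.8% to 63.3%.

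Few reads were ambiguous between these paralogs in the deposited tables. The longest exact stretch shared by transcripts of different members was 44 bases, between Sox9 and Sox10, and in no other pair over 26 bases. The estimated counts of Sox6, Sox13, Sox8, Sox9 and Sox10 were whole numbers with a deposited posterior SD of 0 in both libraries. Sox5 had a posterior SD of 1.18 counts in replicate 1 and 0.7 counts in replicate 2.

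All 6 genes were expressed. Each reached 1 TPM (an abundance corrected for transcript length and scaled to a fixed total per library) in both libraries, which 58.8% of the 21474 protein-coding genes did. Depth was similar, with 38170090 expected counts over annotated genes for replicate 1 and 36382245 for replicate 2, and 1 count on an effective length of 1 kb equalled 0.037 TPM in replicate 1 and 0.0413 in replicate 2. The 14291 genes of any class that reached 1 TPM in both had median levels of 16.4 TPM in replicate 1 and 17.1 in replicate 2.

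Sox9 (ENSMUSG00000000567, chr11:112782224-112787760, plus strand) had by far the highest level of the 6 genes, 110.69 TPM in replicate 1 and 77.24 in replicate 2 (12076 and 7556 counts). Its mean of 94.0 ± 23.7 TPM (SD, n = 2) lay above 86.3% of the detected protein-coding genes. Within the whole family of 20 Sox genes, of which 17 were detected, only Sox11 stood above it, a SoxC gene of neurons in differentiation at 309.87 TPM in replicate 1 and 248.56 in replicate 2. Sox9 and Sox10 each have a single transcript in the deposited tables.

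Sox10 (ENSMUSG00000033006, chr15:79154908-79165240, minus strand) was the least even member. It stood at 7.15 TPM in replicate 1 and 22.82 in replicate 2 (505 and 1446 counts), a mean of 15.0 ± 11.1 TPM. The SD was 73.9% of the mean, against 25.2% for Sox9 and at most 9.5% for the other 4 members. The pools differed more in Sox10 than in any other member.

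Sox8 (ENSMUSG00000024176, chr17:25565892-25570686, minus strand) was low and even, with 8.82 TPM in replicate 1 and 8.20 in replicate 2 (607 and 501 counts) and a mean of 8.51 ± 0.438 TPM. It lay above 29.1% of the detected protein-coding genes. Its first 329 bases overlap 2810468N07Rik, an antisense RNA gene at 6.04 TPM in replicate 1 and 6.54 in replicate 2. Whether counting used the strand is not given in the sources used here, so the split of reads within that overlap is uncertain.

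Of the SoxD genes, Sox5 (ENSMUSG00000041540, chr6:143828425-144781977, minus strand) had 23.52 TPM in replicate 1 and 26.92 in replicate 2 (1071 and 1100 counts), a mean of 25.2 ± 2.40 TPM. Sox13 (ENSMUSG00000070643, chr1:133382303-133424377, minus strand), known as an autoantigen and as a factor that binds the Wnt effector Tcf7, had 22.74 TPM in replicate 1 and 23.90 in replicate 2 (1750 and 1611 counts), a mean of 23.3 ± 0.820 TPM. Both lay near the middle of the detected protein-coding genes, above 56.8% of them for Sox5 and 54.6% for Sox13. Sox6 (ENSMUSG00000051910, chr7:115470872-116038796, minus strand) was the lowest of the 6, with 3.78 TPM in replicate 1 and 3.61 in replicate 2 (645 and 502 counts), a mean of 3.70 ± 0.120 TPM.

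By mean level the order was Sox9, Sox5, Sox13, Sox10, Sox8 and Sox6. Only Sox9 at the top and Sox6 at the bottom had values that overlapped with no neighbour in that order. The ranges of Sox5 and Sox13 overlapped, that of Sox10 reached into the range of Sox13, and both values of Sox8 fell inside the range of Sox10. Sox10 and Sox8 changed places between the pools, with Sox8 above in replicate 1 and Sox10 above in replicate 2.

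**Figure D1:**
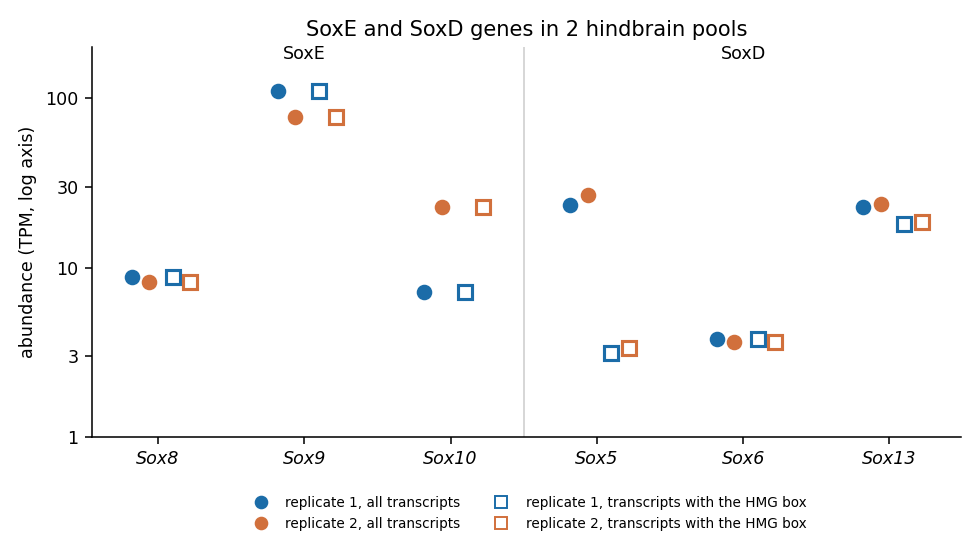
Level of each gene in TPM on a log axis, with replicate 1 in blue and replicate 2 in orange, filled circles for all transcripts of the gene and open squares for the transcripts that hold the HMG box. Circle and square coincide for Sox8, Sox9, Sox10 and Sox6, while the squares of Sox5 drop to 3.11 and 3.36 TPM and the Sox10 values stand 3.19-fold apart.

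Summed by group, SoxE transcripts exceeded SoxD transcripts in both pools. SoxE held 126.66 TPM and SoxD 50.04 TPM in replicate 1, a ratio of 2.53, and SoxE held 108.26 TPM and SoxD 54.43 TPM in replicate 2, a ratio of 1.99. The mean ratio was 2.26 ± 0.383 (SD, n = 2). Sox9 alone made up 87.4% of the SoxE sum in replicate 1 and 71.3% in replicate 2. Sox10 made up 5.6% in replicate 1 and 21.1% in replicate 2, and Sox8 made up 7.0% and 7.6%. The 6 genes together held 27.8% of the TPM of all 20 Sox genes in replicate 1 and 30.5% in replicate 2.

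The transcript tables changed the picture for Sox5. Of its 14 transcripts in the tables, 5 contain the HMG box in their coding sequence, and these held 3.11 TPM in replicate 1 and 3.36 in replicate 2, or 13.2% and 12.5% of the level of the gene. The other 9 are 351 to 2949 bases long and held 20.41 TPM in replicate 1 and 23.55 in replicate 2. The same split looks different in counts, since the transcripts with the box are 6144 to 7243 bases long as deposited. They received 593 of the 1071 counts in replicate 1 (55.4%) and 577 of the 1100 in replicate 2 (52.4%). The box calls use GENCODE M21, which gives shorter lengths for some of them. These are 2526 against 7071 bases for Sox5-202, 1734 against 6144 for Sox5-204 and 3879 against 7069 for Sox5-205. How the split depends on these lengths was not tested.

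Sox5-208, a processed transcript of 351 bases with no coding sequence, had the highest level of any Sox5 transcript, 6.72 TPM in replicate 1 and 7.09 in replicate 2. Those levels rest on 45.8 and 43.3 estimated counts, 4.28% and 3.94% of the counts of the gene. Sox5-213, a retained intron of 633 bases, was at 4.78 TPM in replicate 1 and 4.75 in replicate 2. Sox5-211, a coding fragment of 669 bases without the box, was at 4.28 and 5.72 TPM, and the retained intron Sox5-207 at 2.00 and 3.33 TPM. These 4 were the Sox5 transcripts that held at least 10% of the level of the gene in either library.

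The Sox5 transcripts with the box had a similar total in both pools, but how it divides among them is uncertain. Sox5-201, which has 2289 coding bases, was at 1.26 TPM in replicate 1 and 1.31 in replicate 2. Sox5-202 was at 0.54 and 1.28 TPM. Sox5-205 was at 1.31 TPM in replicate 1 and listed at 0 in replicate 2, and Sox5-214 was listed at 0 in replicate 1 and at 0.77 TPM in replicate 2. The deposited credibility intervals of each of these 4 overlapped between the pools, with upper ends of 1.52 TPM in replicate 1 and 0.872 in replicate 2 for Sox5-205, and 1.47 and 1.48 TPM for Sox5-214. By the deposited posterior means Sox5-214 was at 0.58 TPM in replicate 1 and 0.64 in replicate 2. Sox5-204, with 1176 coding bases the shortest of the 5 with the box, was listed at 0 in both libraries, with upper ends of 0.138 and 0.117 TPM. A short Sox5 form is known from mouse testis.

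The starts of the Sox5 transcripts fall into 3 regions of its locus. Most of the level, 16.74 TPM in replicate 1 and 18.65 in replicate 2, came from 8 transcripts that start between positions 144204057 and 144209568. The 4 transcripts that start at 143947088 to 143947106, the most downstream region, held 4.71 and 6.33 TPM. The 2 that start at the upstream end of the gene, at 144781919 to 144781977, held 2.07 TPM in replicate 1 and 1.93 in replicate 2.

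Sox13 and Sox8 were led by the same transcript in both pools. Sox13-205, with 1839 coding bases, was at 12.03 TPM in replicate 1 and 11.25 in replicate 2, 52.9% and 47.0% of the gene. Sox13-203, with 1512 coding bases, was at 5.98 and 7.36 TPM. The 3 Sox13 transcripts with the box held 18.01 TPM in replicate 1 (79.2%) and 18.61 TPM in replicate 2 (77.8%), and the retained intron Sox13-204 most of the remainder, at 4.54 and 4.58 TPM. Sox8-201, with 1392 coding bases, was at 7.31 TPM in replicate 1 and 6.69 in replicate 2, 82.9% and 81.6% of the gene, and Sox8-202, with 663 coding bases, was at 1.51 TPM in both.

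**Figure D2:**
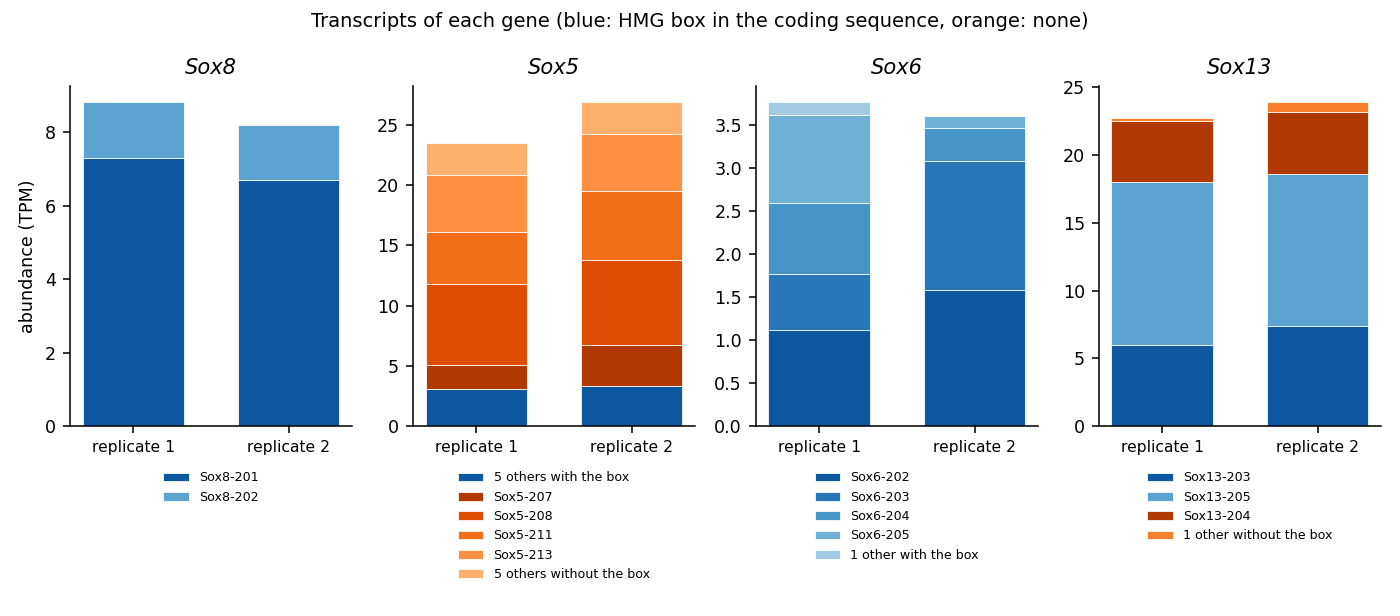
Stacked transcript levels in TPM for Sox8, Sox5, Sox6 and Sox13, with replicate 1 left and replicate 2 right in each panel, blue for transcripts that hold the HMG box in the coding sequence and orange for those that do not. Each axis has its own scale; Sox5 is mostly orange, Sox8 and Sox6 are wholly blue, and the blocks of Sox6 differ between the pools.

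Counting only transcripts with the box moved Sox5 from the second place by TPM to the last in both libraries. It lay close under Sox6, at 3.11 TPM in replicate 1 and 3.36 in replicate 2 against 3.77 and 3.61. In expected counts Sox5 was not last, as its 593 exceeded the 505 of Sox10 in replicate 1 and its 577 the 502 of Sox6 in replicate 2. The order by TPM in replicate 1 was Sox9, Sox13, Sox8, Sox10, Sox6 and Sox5, and in replicate 2 it was Sox9, Sox10, Sox13, Sox8, Sox6 and Sox5. On this count SoxD was at 24.89 TPM in replicate 1 and 25.58 in replicate 2, and the ratio of SoxE over SoxD was 5.09 in replicate 1 and 4.23 in replicate 2. This restriction was chosen after the levels had been seen. The level of the shortest transcript, Sox5-208, rests on few counts, whereas the 4 retained introns of Sox5 received 342.53 counts in replicate 1 and 377.3 in replicate 2. Reads from unspliced RNA were not separated from these.

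All 5 Sox6 transcripts hold the box, and each has its own start. Their lengths run from 2825 to 8227 bases, and Sox6-203 and Sox6-205 also end upstream of the other 3. Sox6-202 was at 1.12 TPM in replicate 1 and 1.58 in replicate 2, and Sox6-203 was at 0.65 and 1.5 TPM. Sox6-205 was at 1.03 TPM in replicate 1 and 0.14 in replicate 2, Sox6-204 at 0.82 and 0.39 TPM, and Sox6-201 at 0.15 TPM in replicate 1 and listed at 0 in replicate 2. Sox6-202 led in both pools, with 29.7% and 43.8% of the gene. The deposited intervals of Sox6-205 did not overlap, from 0.668 to 1.48 TPM in replicate 1 and 0.0103 to 0.451 TPM in replicate 2, while those of Sox6-202, Sox6-203 and Sox6-204 did. The length given for Sox6-205 is 5100 bases in the deposited tables and 5122 in M21. With 1 library on each side, the shift in Sox6-205 has no replicate check.

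The start regions of Sox6-202, which led in both pools, and of Sox6-205, whose intervals did not overlap, are shown as 250 bases before and 50 after a RefSeq start (GRCm38.p6), 5′ to 3′ on the minus strand of chromosome 7. The first lies at chr7:116030998-116031297 and the second at chr7:115824661-115824960. Capitals mark matches to the motifs searched on either strand, AACAAT (the core that Sox proteins bind), TATAAA (the TATA box) and GGGCGG (the GC box, CCGCCC on the other strand), none of which overlaps another here.
Sox6-202 start: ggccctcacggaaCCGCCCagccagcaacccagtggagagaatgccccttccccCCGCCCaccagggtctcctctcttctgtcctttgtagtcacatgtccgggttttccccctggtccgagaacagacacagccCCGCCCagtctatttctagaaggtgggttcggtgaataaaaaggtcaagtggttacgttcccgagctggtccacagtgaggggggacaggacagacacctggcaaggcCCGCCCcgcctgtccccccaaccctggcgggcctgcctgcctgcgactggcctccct
Sox6-205 start: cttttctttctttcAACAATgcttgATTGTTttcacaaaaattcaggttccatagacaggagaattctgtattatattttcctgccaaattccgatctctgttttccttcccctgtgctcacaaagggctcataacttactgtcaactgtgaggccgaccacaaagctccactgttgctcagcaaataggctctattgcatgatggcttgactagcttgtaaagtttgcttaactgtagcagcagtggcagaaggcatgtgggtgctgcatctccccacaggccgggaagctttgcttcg
The GC content was 63.3% at the Sox6-202 start and 45.0% at the Sox6-205 start, against a median of 52.7% over 32851 promoters of the same length. The first holds the GC box, as do 35.7% of all promoters, and the second holds AACAAT, as do 10.7%. TATAAA, present in 13.6% of all promoters, matched in neither window. A match describes these letters only and shows no binding.

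The pools were then compared gene by gene, as log2 of replicate 1 over replicate 2 after scaling both libraries to their typical gene (TMM). Over the 14291 detected genes the median ratio was -0.001 and the median distance from 0 was 0.21, close to the 0.24 of the 6 members. With 1 library on each side no test was possible, and the intervals given below cover counting error only, not the spread between pools.

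Sox10 was 3.01-fold lower in replicate 1, a log2 ratio of -1.59 with a counting interval of -1.75 to -1.45. It was the single member at least 2-fold apart, whereas 4.03% of all detected genes were, 3.22% higher in replicate 1 and 0.812% lower. A ratio as low as that of Sox10 or lower was seen in 18 of the 14291 genes (0.126%). Sox9 lay on the other side, 1.51-fold higher in replicate 1 (log2 0.60, 0.56 to 0.64), and 8.52% of detected genes had a ratio that high or higher. Sox9 transcripts were 15.5 times as abundant as Sox10 transcripts in replicate 1 and 3.39 times in replicate 2.

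The other members differed little between the pools. Sox6 had a log2 ratio of 0.28 (0.11 to 0.46) and Sox8 of 0.20 (0.03 to 0.37), and ratios that high or higher were held by 20.1% of detected genes for Sox6 and 26.9% for Sox8. For Sox13 (0.04, -0.06 to 0.14) and Sox5 (-0.12, -0.24 to 0.01) the interval included 0. All of these are differences from the typical gene. Scaling to the spike-ins instead shifted the median ratio of the detected genes by -0.82, and all 6 members were then lower in replicate 1, from -0.22 for Sox9 to -2.41 for Sox10.

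**Figure D3:**
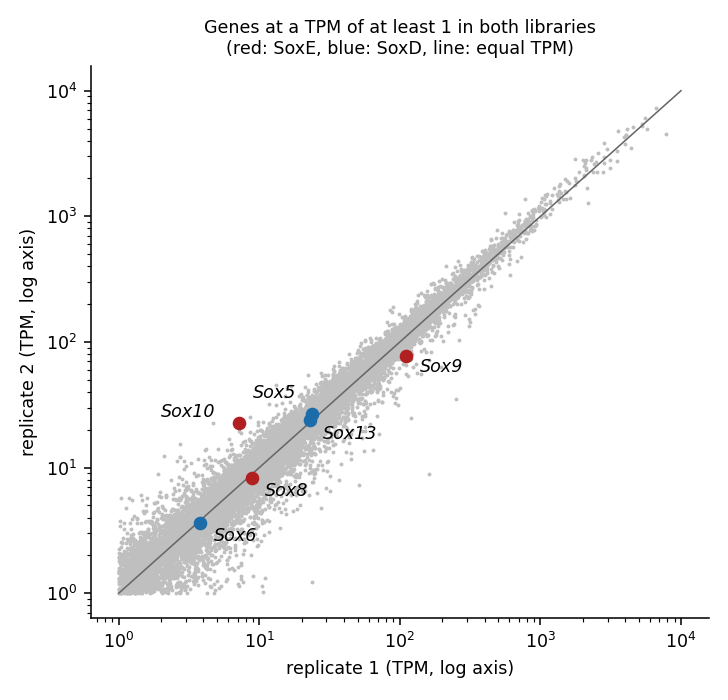
Level of each of the 14291 detected genes (grey) in replicate 1 (x axis) and replicate 2 (y axis), in TPM on log axes, with SoxE genes in red, SoxD genes in blue and the line of equal TPM. Sox10 stands at the upper edge of the cloud at 7.15 and 22.82 TPM, Sox9 lies just under the line, and the other 4 members lie close to it.

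Genes of the tissues in which these factors act were read beside them. In bulk tissue, fewer cells of a type and less RNA per cell cannot be told apart. Of 10 genes listed for hindbrain neuroepithelium 10 were detected in both pools (median ratio 0.33), as were 58.8% of all protein-coding genes. Among them were the neural RNA-binding protein gene Msi1 at 176.98 TPM in replicate 1 and 140.76 in replicate 2 and the Hox gene of the anterior hindbrain Hoxa2 at 47.12 and 27.33 TPM. Markers of other brain regions were not compared, so the fit to the hindbrain label was not tested. The ratios below are log2 of replicate 1 over replicate 2, and each list's median covers its genes with a mean of at least 1 TPM. Each count of detected genes below is to be read beside the same 58.8%. What part any of these lists had in the ratios of Sox10 and Sox9 was not tested.

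Markers of the neural crest and of its glia and pigment cells did not move as a block. Of 16 genes 15 were detected in both, with a sum of 1012 TPM in replicate 1 and 700.7 in replicate 2, mostly from Fabp7, a lipid-binding protein gene that radial glia use too (684.61 and 437.41 TPM). The median ratio was 0.20, with 8 genes higher and 7 lower in replicate 1. The largest ratio was that of Erbb3, the neuregulin receptor of crest-derived glia, at 4.01 TPM in replicate 1 and 11.4 in replicate 2 (-1.42), the direction of Sox10. Ednrb, the endothelin receptor of crest cells, was at 73.29 and 55.87 TPM (0.47). Chosen after their values were seen, the crest factors Tfap2a (9.54 and 4.62 TPM, 1.12) and Tfap2b (64.88 and 32.41 TPM, 1.01) went the other way. The early crest factor Foxd3, also chosen so, was under 1 TPM in both pools (0.40 and 0.89 TPM) and is not in the median. Its ratio of -1.02, on 24 and 48 counts, had the direction of Sox10.

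The otic epithelium, another site of Sox10, was detected through 9 of 12 genes, with a sum of 93.2 TPM in replicate 1 and 152.1 in replicate 2. The median ratio was -0.66, with 3 genes higher and 6 lower in replicate 1. Dlx5, a homeobox gene of the dorsal otic vesicle, was at 2.74 TPM in replicate 1 and 12.21 in replicate 2 (-2.05), and Oc90, a protein of the otoconia, at 13.16 and 45.11 TPM (-1.75). Eya1, a cofactor of the otic placode, was at 14.58 and 32.76 TPM (-0.99). The 3 genes higher in replicate 1 were Pax2 (1.36), Pax8 (1.29) and Tbx1 (12.26 and 9.93 TPM, 0.38), named after their values were seen. RNA of the listed genes from cells outside the otic epithelium was not separated.

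Of 12 cartilage matrix genes, known targets of Sox9 with Sox5 and Sox6 in chondrocytes, 7 were detected in both pools. This is about the share among all protein-coding genes (58.8%). The sum of the list was 250.9 TPM in replicate 1 and 305.9 in replicate 2. Most came from the collagen genes Col2a1 (158.54 and 190.9 TPM) and Col9a1 (36.32 and 43.39 TPM), while Acan, the aggrecan of cartilage, was at 0.07 TPM in replicate 1 and 0.06 in replicate 2. The median ratio was -0.32, with 2 of 8 measured genes higher and 6 lower in replicate 1. The largest was that of Col11a1, at 9.41 and 15.62 TPM (-0.64). Sox9, higher in replicate 1, did not share this direction.

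Most genes of radial glia and of the onset of gliogenesis were higher in replicate 1, as Sox9 was. Of 12 genes 11 were detected, with a sum of 2363 TPM in replicate 1 and 1949 in replicate 2, a median ratio of 0.69, and 10 genes higher and 1 lower in replicate 1. Vim, an intermediate filament, was at 928.86 and 857.57 TPM (0.20), Fabp7 as above (0.73), and the matrix protein gene Tnc at 2.82 and 1.11 TPM (1.48). Neuronal genes had a larger shift in the same direction. All 10 were higher in replicate 1 (median 0.83), with a sum of 2134 TPM in replicate 1 and 1330 in replicate 2. Tubb3 was at 726.87 and 472.71 TPM, Nefl at 309.57 and 226.02 TPM and Ina, the largest ratio of the list, at 197.32 and 63.04 TPM (1.73).

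Genes of the oligodendrocyte lineage, in which Sox10 and the SoxD factors act later, were mostly low. The median level of the list was 2.075 TPM in replicate 1 and 2.125 in replicate 2. Of 12 genes 9 reached 1 TPM in both, with a sum of 66.97 TPM in replicate 1 and 86.54 in replicate 2 and a median ratio of -0.16. Highest in the list were Cnp at 18.17 and 23.05 TPM (-0.26) and Pdgfra, a receptor of oligodendrocyte precursors and of mesenchyme, at 15.21 and 17.97 TPM (-0.16).

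**Figure D4:**
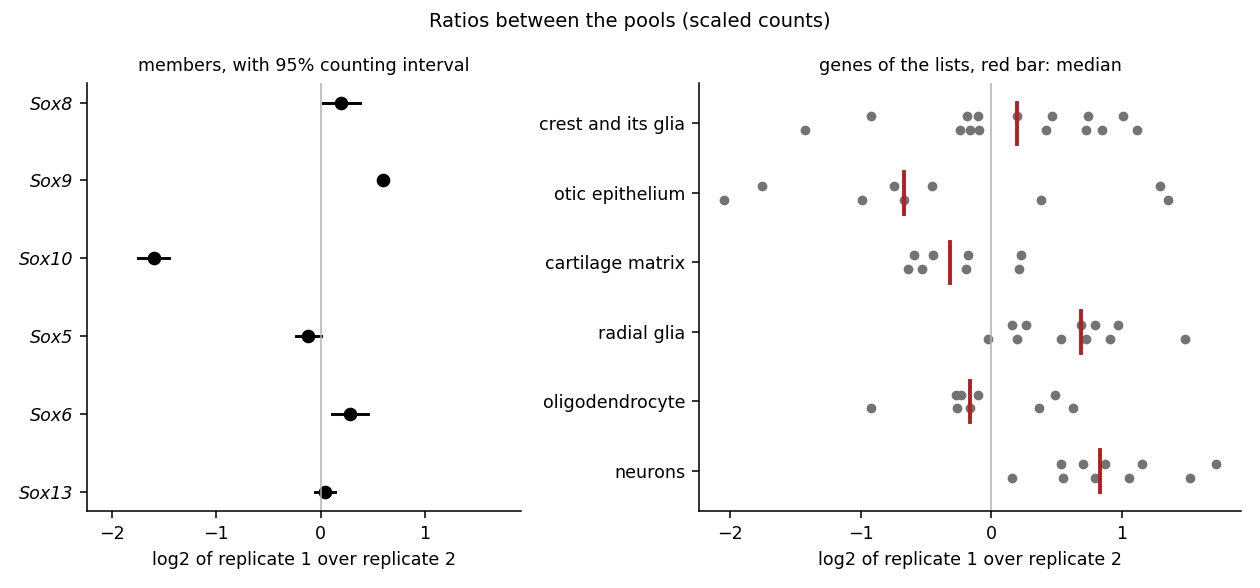
Log2 ratio of replicate 1 over replicate 2 for the 6 members (left, with 95% counting intervals) and for genes of 6 context lists with a mean of at least 1 TPM (right, 1 point per gene, red bar for the median). Sox10 at -1.59 lies below the other members, the otic list has a median of -0.66, and the radial glia and neuron lists have medians of 0.69 and 0.83.

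Of a list of 12 genes for binding partners of SoxD and SoxE proteins, all were detected as RNA in both pools, with a sum of 1502 TPM in replicate 1 and 1655 in replicate 2 and a median ratio of -0.09. The corepressor gene Ctbp1 was at 334.6 TPM in replicate 1 and 330.85 in replicate 2. Cenpk, once named Solt for its binding to Sox6, was at 30.4 TPM in replicate 1 and 45.64 in replicate 2 (-0.51). In red blood cell precursors of the mouse Sox6 silences the embryonic globin gene Hbb-y. All 10 erythroid genes were detected, with a sum of 14830 TPM in replicate 1 and 16530 in replicate 2 and a median ratio of -0.03. Hbb-y was at 6598.23 and 7327.98 TPM (-0.07) and Hbb-bh1 at 2846.53 and 3849.44 TPM (-0.36). Bcl11a, a globin repressor gene that neurons express too, was at 43.76 TPM in replicate 1 and 17.4 in replicate 2 (1.42).

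Genes listed for head mesenchyme and for endothelium were present as RNA in both pools. All 8 genes of head mesenchyme were detected, with a sum of 564.6 TPM in replicate 1 and 500.5 in replicate 2 and a median ratio of 0.15. The collagen gene Col3a1 was at 311.11 and 312.7 TPM, Col1a1 at 154.3 and 82.84 TPM, and Alx1, a homeobox gene of crest-derived mesenchyme, at 2.83 and 8.15 TPM (-1.44). All 8 endothelial genes were detected too, with a sum of 180.0 TPM in replicate 1 and 207.9 in replicate 2 and a median of -0.03, among them Egfl7 at 62.69 and 85.01 TPM and Esam at 27.28 and 26.93 TPM. Of the 14 remaining Sox genes 11 were detected, with a median ratio of 0.22. Sox4, of the SoxC group like Sox11, was at 76.04 TPM in replicate 1 and 49.79 in replicate 2, and Sox14, of the SoxB group, had the largest ratio at 2.63 and 1.20 TPM (1.22).

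Genes within 50 kb of the members were read too. BC006965, a noncoding gene on the opposite strand whose 5′ end lies 248 bases from the start of Sox9, head to head with it, was at 2.89 TPM in replicate 1 and 9.80 in replicate 2 (77 and 201 counts), a ratio of -1.44 against 0.60 for Sox9. Near Sox10, the RNA polymerase subunit gene Polr2f was at 285.72 and 323.76 TPM, 1700088E04Rik at 12.98 and 8.44 TPM and Micall1 at 4.12 and 3.67 TPM, so that none of these 3 had the 3.01-fold difference of Sox10. The noncoding gene Gm10863, 801 bases from Sox10, was at 0.24 TPM in replicate 1 and 0.76 in replicate 2, on 4 and 8 counts, and was named after its values were seen. The lipase maturation gene Lmf1 near Sox8 was at 25.45 and 25.53 TPM, 1110004F10Rik, on the opposite strand 601 bases from Sox6, at 262.05 and 299.1 TPM, and the ethanolamine kinase gene Etnk2 near Sox13 at 3.30 and 2.48 TPM. The 6 RNA genes annotated inside Sox5 had 2 counts in replicate 1 and 5 counts in replicate 2 in all, and the antisense gene Sox6os had 8 and 7.

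Of the 133 genes on the context lists, genes near each member by their log2(TPM + 0.1) in both libraries were, for Sox9, Nes (distance 0.25) and Map2 (0.33), and for Sox8, Sox12 (0.03) and Sox17 (0.20). Near Sox10 was Col11a1 (0.67). For Sox5 these were Ets1 (0.02) and Crebbp (0.05), for Sox6 Sox3 (0.19) and Ret (0.39), and for Sox13 Pdgfrb (0.12) and Slc1a3 (0.13). Over 2 libraries this distance reflects mostly the level of a gene and adds little on its pattern.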

How the data were processed

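Total RNA of 2 hindbrain pools was sequenced, with the mirVana kit used for extraction per the labels' protocols. The deposited notes name assembly mm10 and annotation M4; for the aligner and the quantification program, nothing is given in the sources used here. Per the file headers, each gene and transcript table holds an expected count, with TPM, FPKM and posterior means beside it. The expected count was read here as an estimated count in which reads that match several genes are divided, which the headers do not state. The percent of a gene in each isoform is deposited too, but shares printed here were computed afresh from TPM. Effective length was the length minus 99 bases, so short transcripts get high TPM from few counts.

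Gene and transcript names, classes and coding sequences came from GENCODE M21 on the same assembly, and 24 of the 29 member transcripts had the same length there. Transcripts were said to hold the HMG box where the coding sequence contains its conserved start. Expected counts were rounded, and pool ratios are log2 ratios of CPM scaled by TMM in edgeR 4.0.16 (R 4.3.3, genes at a CPM of at least 1, prior count 2), with exact counting intervals at the 95% level. Such intervals express counting error alone, as reads do not stand for independent molecules. Rounded gene counts summed to 38170078 in replicate 1 and 36382223 in replicate 2, and spike-ins took 13.0% and 7.82% of TPM. With 1 group no comparison between conditions and no p-value was possible.

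The members, the 12 context lists and the rules were chosen with earlier results of these data known. Named were, in each list, the 2 genes of highest mean TPM and the 1 with the largest ratio, the 2 list genes nearest to each member, genes within 50 kb at a mean of at least 1 TPM, and transcripts with at least 10% of their gene in either library. Of the genes these rules pick, 2 are not reported here. Alternatives were FPKM, posterior means, counts, pseudocounts, detection thresholds, other scalings including DESeq2 1.42.0 size factors, another prior count, and each library left out. Software was Python 3.11.15, scipy 1.17.1, pandas 2.3.3, numpy 2.4.6 and matplotlib 3.10.9.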

Additional observations from a re-analysis of the deposited data

How the results depend on the processing

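Of 109 alternative values of 18 results, 5 changed sign and 15 moved by more than the SD between pools (for levels, shares and the ratio of SoxE over SoxD) or out of the counting interval (for pool ratios). The other 89 include those with a library left out, which say nothing on stability, since with 2 libraries a mean then always moves by less than the SD. Sox10, for example, was then at 7.15 or 22.82 TPM. Other values among the 89 were fixed in advance as well. FPKM rescaled to the total of TPM is TPM again but for rounding. The levels of Sox9 and Sox10 cannot change when only transcripts with the HMG box are counted. A threshold of 0.1 TPM cannot drop a gene that reached 1 TPM. At a threshold of 5 TPM, 5 of the 6 members were counted, and this too is among the 89. With the HMG-box transcripts alone, an alternative chosen after seeing the data, the mean level of Sox5 was 3.235 TPM and that of Sox13 18.3 TPM, and SoxE over SoxD was 4.66. That ratio was 3.38 in counts without length correction, 1.66 as a ratio of geometric means of TPM + 0.1 and 1.61 with a pseudocount of 1, and 1.99 to 2.53 with either library left out. Spike-in scaling shifts the median gene by -0.82, so that any gene with a smaller positive ratio changes sign. The log2 ratios of replicate 1 over replicate 2 were then -0.22 for Sox9, -0.62 for Sox8, -0.54 for Sox6 and -0.78 for Sox13, which all changed sign, and -0.94 for Sox5 and -2.41 for Sox10. Ratios of the deposited TPM were 0.52 for Sox9, 0.066 for Sox6 and -0.072 for Sox13, which reversed. In counts, the transcript that leads by TPM held 4.11% of Sox5, where it no longer led, 50.02% of Sox6, 63.8% of Sox13 and 94.2% of Sox8, and by posterior means 79.1% of Sox8. No paired analysis was possible because the design has 1 group. What limits single transcripts, depth or the likeness of overlapping isoforms, was not tested.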
